A study of Mus musculus with 6 samples.

Results

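A pair of mouse embryonic stem cell lines that differ in the form of DNMT1 they carry were compared at day 4 of differentiation, on the array of the deletion line and the array of the full-length line for that day, 2 of the 6 arrays of the study. The arrays were picked by title, where the form of DNMT1 and the day are given. All 18193 genes with probe sets of a single gene symbol entered the comparison. Both lines are triple knockouts of Dnmt1, Dnmt3a and Dnmt3b (TKO), and each expresses 1 form of DNMT1 ubiquitously. The deletion line carries DNMT1 that lacks its first 602 amino acids. The full-length line carries DNMT1 with nothing removed. At day 4 the cells of both lines had formed embryoid bodies, balls of cells in suspension, for 1 day and had then grown attached to a plate for 3 days, without leukaemia inhibitory factor (LIF). The day 0 arrays, used here for comparison, came from cells in 10% serum with LIF, and the day 7 arrays from cells kept for 3 more days with Activin A at 10 ng/ml, in medium with 10% KSR. The source label of the deletion line's day 0 sample describes differentiated cells while its title gives day 0, and the title was followed. Each form was present in 1 line, so the form of DNMT1 and the line that carries it cannot be told apart, and the labels do not say whether a line is a single clone.

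DNMT1 copies cytosine methylation onto newly made DNA, and DNMT3A and DNMT3B place methylation at new sites. The N-terminal part of DNMT1 holds binding sites for partners that bring it to replication sites and, further on, a domain that targets replicating DNA through UHRF1, while the catalytic domain lies at the C-terminal end. In mouse embryonic stem cells LIF sustains naive pluripotency through STAT3. After LIF is withdrawn cells pass through a formative and then a primed epiblast state, from which the germ layers arise, and a side branch forms extraembryonic endoderm.

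A level below is the log2 MAS5 signal of a gene's brightest probe set, with a floor at 5.37 under which signals were set to it. The floor is the 40th percentile of the signals, and a lower and a higher floor, at the 20th and 60th percentiles, were tried as alternatives. A difference is the level of the deletion line minus that of the full-length line, on the log2 scale, and where 1 line lies at the floor it is a lower bound in size. Levels of different genes were not compared. There was 1 array a side, so no test was made, and no value below has a replicate error. A gene was counted as higher or lower where the lines differed 2-fold or more and the brighter of the arrays reached 2 times the floor. As no level lies below the floor, the second condition follows from the first and removes no gene. The number of arrays limits the precision. As 1 guide to the technical part of the spread, the standard deviation of a gene's difference estimated from a pair of its probe sets was 0.361 over 6152 genes, which holds nothing of the variation between cultures.

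The median over probe sets was 6.03 on the deletion line's day 4 array and 6.19 on the full-length line's, a wider gap than at day 0 (6.12 in the deletion line and 6.02 in the full-length line) or day 7 (6.06 in the deletion line and 6.09 in the full-length line). Signals deposited as 0 numbered 514 on the deletion line's day 4 array and 350 on the full-length line's, and 12647 genes lay above the floor on the deletion line's array and 12788 on the full-length line's. Stem cell markers were high on both. Pou5f1, which encodes OCT4, had levels of 13.53 in the deletion line and 13.89 in the full-length line, and Sox2 had levels of 13.49 in the deletion line and 12.69 in the full-length line. The 12 fibroblast markers, which would show feeder cells, had a summed linear signal of 1234 in the deletion line and 1347 in the full-length line, with 5 at the floor in the deletion line and 0 in the full-length line. At day 0 the same sums were 15734 in the deletion line and 6758 in the full-length line. The 7 measured myeloid markers summed at day 4 to 756 in the deletion line, with 4 at the floor, and to 681 in the full-length line, with 1. Their median difference was -0.33, while Cd68, the brightest of them at day 4, lay at 8.81 in the deletion line and 7.98 in the full-length line. At day 0 the myeloid markers summed to 11309 in the deletion line and 2719 in the full-length line. Blood markers summed to 550 in the deletion line and 583 in the full-length line. In bulk RNA, fewer cells of a type and less RNA per cell cannot be told apart.

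At day 4, 323 of 13277 measured genes were at least 2-fold higher in the deletion line (2.43%) and 470 were at least 2-fold lower (3.54%). The other 12484 genes lay less than 2-fold apart, and 75.5% of all genes lay within 0.5 of no difference. The shares of 2.43% and 3.54% are the background for the day 4 list counts below. By sign, 6132 genes had a positive difference and 6811 a negative one. The median difference was -0.02 and the middle 95% ran from -1.13 to 0.98. The levels of the lines correlated at 0.974, a description over genes of a single pair of arrays and not over replicates. The split between directions depends on the scaling. With the array medians made equal, 493 genes were higher and 324 lower, so that 60.3% of the counted genes were higher in place of 40.7%, and the median over all genes moved to 0.13. Dim genes varied more. Among the dimmest 2662 genes, 1 of 5 equal bins, the middle 95% of differences ran from -1.42 to 1.18, and among the brightest 2656 from -0.62 to 0.65, and the 16 higher and 28 lower genes of the brightest bin compare with 123 and 195 in the dimmest.

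**Figure D1:**
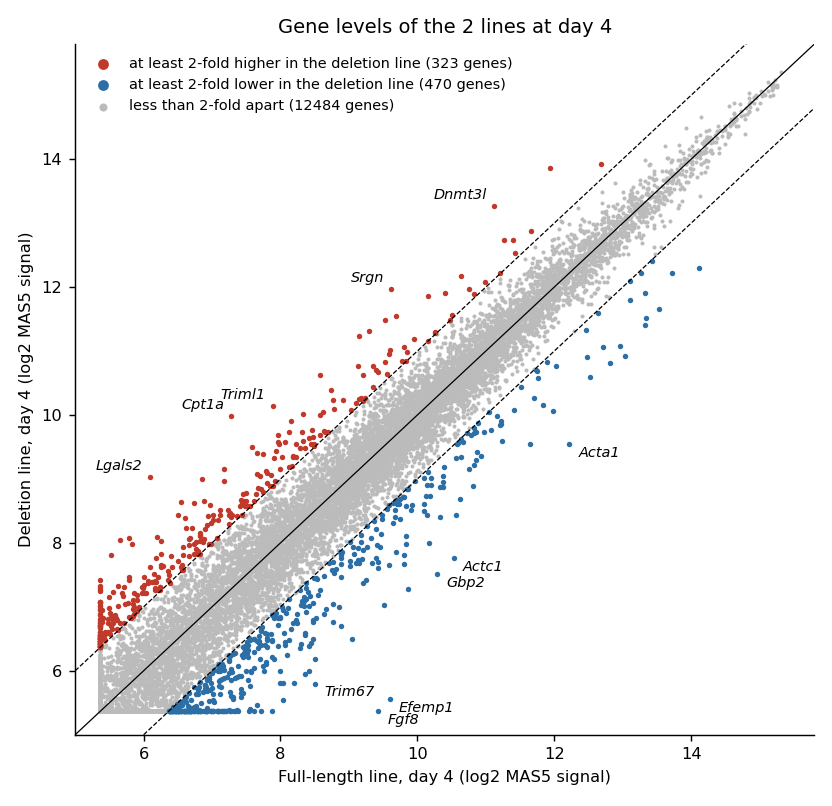
Level of each measured gene in the deletion line (vertical axis) against the full-length line (horizontal axis) at day 4, both as log2 MAS5 signal, with the solid line marking equal levels and dashed lines marking 2-fold. Red points are the 323 genes at least 2-fold higher in the deletion line, blue points the 470 at least 2-fold lower, and the points widen about the solid line toward the floor of 5.37.

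Other probe sets of the same gene give a partial check. Of the 323 higher genes, 111 had a further probe set whose mean signal reached the floor. In 76 of these (68.5%) every such probe set had the same sign, in 46 (41.4%) at least 1 was also 2-fold higher, and in 1 a probe set was 2-fold lower. Of the 470 lower genes 159 had a further probe set, in 136 (85.5%) all had the same sign, in 69 (43.4%) at least 1 was also 2-fold lower, and in 0 was any 2-fold higher. The remaining 212 higher and 311 lower genes had no such second probe set. With all further probe sets counted, also those dimmer than the floor on average, every one had the same sign in 37.2% of 156 higher and 46.4% of 261 lower genes. A difference of 0, as where both lines lie at the floor, counted as not the same sign. A probe set of opposite sign was found in 39 of these 156 higher and 27 of these 261 lower genes.

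The methyltransferase genes were read first. The brightest Dnmt1 probe set had a level of 8.37 in the deletion line and 8.77 in the full-length line, a difference of -0.40. The second gave 7.72 in the deletion line and 8.28 in the full-length line, a difference of -0.56. Another, dim probe set was deposited at 3.32 in the deletion line and at 5.53 in the full-length line. With the floor applied its difference was -0.16, a lower bound in size. The position of the probe sets in the knocked-out gene and in the DNMT1 put back was not looked up, so they do not check the labels. Dnmt3a was not measured, with all 5 probe sets below the floor on average. Dnmt3b lay at 9.04 in the deletion line and 9.71 in the full-length line, and its other probe set at 7.73 in the deletion line and 7.78 in the full-length line. The strongest difference in the methylation machinery was in Dnmt3l, which encodes a partner of DNMT3A and DNMT3B without catalytic activity of its own. Dnmt3l lay at 13.26 in the deletion line and 11.12 in the full-length line, 4.41-fold higher, whereas its differences were 0.17 at day 0 and 0.90 at day 7. It was the only 1 of the 22 measured genes of the methylation machinery list that was at least 2-fold apart. Uhrf1, which encodes the protein that brings DNMT1 to half-methylated DNA, differed by -0.17, Tet1, a gene for an enzyme that oxidises methylcytosine, by 0.58, and the list's median was -0.03.

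The 15 highest and 15 lowest differences were taken among genes whose brighter array reached 4 times the floor. Lgals2, the gene of a galectin, had the highest, with levels of 9.03 in the deletion line and 6.09 in the full-length line, a difference of 2.94, although its other probe set gave 0.83. Cpt1a, whose product carries long-chain fatty acids into mitochondria for oxidation, had levels of 9.98 in the deletion line and 7.28 in the full-length line, a 6.50-fold difference at its brightest probe set and differences of 0.66 and 0.70 at the others. Pdgfra, a receptor tyrosine kinase gene of primitive endoderm and mesoderm, lay at 8.05 in the deletion line and 5.66 in the full-length line, with 1.24 at a second probe set. These 3 genes were thus higher at every probe set above the floor, by unequal amounts. Srgn, which encodes the proteoglycan serglycin, had levels of 11.97 in the deletion line and 9.62 in the full-length line, and Gbx2, a homeobox gene that LIF and STAT3 activate in stem cells, had levels of 8.64 in the deletion line and 6.55 in the full-length line. Liph, a phospholipase gene, had a difference of 2.02 and of 1.82 at its second probe set. Gpx2, a glutathione peroxidase gene, differed by 2.05 and Aass, an enzyme gene of lysine breakdown, by 2.09, while both had day 0 and day 7 differences between -0.53 and -0.02. Mocos, Triml1 and Tsx had differences of 2.14, 2.25 and 2.29. Tfec, a relative of the MITF transcription factor, was at 7.42 in the deletion line and at the floor in the full-length line, at least 4.16-fold higher. For Dcdc2a (2.29) and Klk1 (2.16) the probe sets conflicted, with a second one at -0.16 for Dcdc2a and further ones between -0.50 and 1.39 for Klk1.

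Among the 15 lowest, Fgf8, a growth factor of the primitive streak, was at the floor in the deletion line and at 9.43 in the full-length line, at least 16.7-fold lower. Efemp1, which encodes the matrix protein fibulin-3, had levels of 5.56 in the deletion line and 9.60 in the full-length line, a 16.4-fold difference. Both genes were measured by 1 probe set. Fst encodes follistatin, which binds and blocks activin. It lay at 7.28 in the deletion line and 9.86 in the full-length line, and its 2 probe sets differed by -2.58 and -3.56. Gbp2, a guanylate-binding protein gene that interferon induces, had levels of 7.51 in the deletion line and 10.29 in the full-length line, with differences of -2.78 and -2.21 at its 2 probe sets. Vnn1, the gene of a pantetheinase, lay at 6.50 in the deletion line and 9.04 in the full-length line, with -2.54 and -2.38. The zinc finger gene Sp8 had levels of 5.37 in the deletion line and 7.88 in the full-length line, the microfibril gene Mfap2 5.55 in the deletion line and 8.04 in the full-length line, and the myelin protein gene Pmp22 7.03 in the deletion line and 9.51 in the full-length line. Cxcl10, an interferon-induced chemokine gene, lay at 5.99 in the deletion line and 8.42 in the full-length line, and the adhesion gene Nrcam at 5.95 in the deletion line and 8.36 in the full-length line, with -1.19 at its second probe set. Trim67 and Golga7b differed by -2.71 and -2.39, and Tmem163 by at least 2.35 in size, with the deletion line at the floor. The actin genes Actc1 and Acta1 complete these 15 and are described with the muscle genes.

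**Figure D2:**
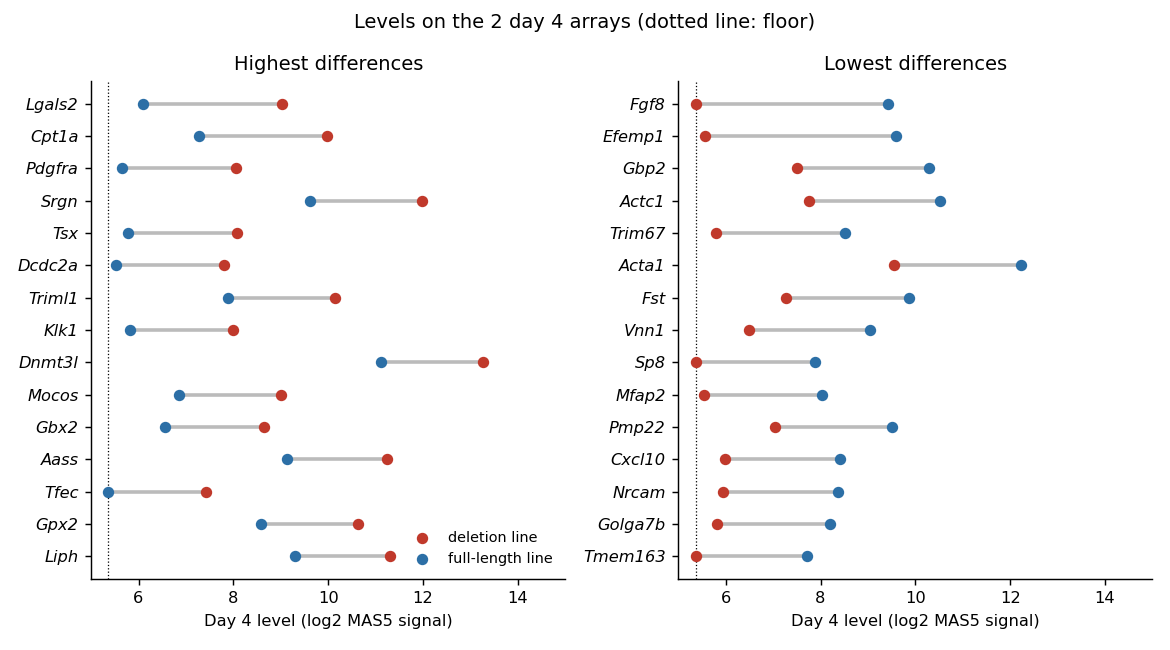
Levels on the day 4 arrays (log2 MAS5 signal, horizontal axis) of the 15 genes with the highest differences (left panel) and the 15 with the lowest (right panel), with red points for the deletion line, blue points for the full-length line and a dotted line at the floor. In Fgf8 and Tmem163 the deletion line sits on the floor, and in Tfec the full-length line does.

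Many genes of naive pluripotency were higher in the deletion line. Of 24 measured genes 11 were at least 2-fold higher, 0 lower, and 23 had a positive difference, with a list median of 0.86 beside -0.02 for all genes. Besides Gbx2, the T-cell leukaemia gene Tcl1, a coactivator of AKT, had levels of 10.01 in the deletion line and 8.33 in the full-length line. Nr5a2, an orphan nuclear receptor gene, had levels of 10.39 in the deletion line and 8.74 in the full-length line, with further probe sets between 0.06 and 1.62. Fgf4, the stem cells' own FGF ligand, lay at 11.90 in the deletion line and 10.41 in the full-length line, and Fbxo15, a marker of the undifferentiated state, at 12.74 in the deletion line and 11.26 in the full-length line. Zfp42, also called Rex1, had levels of 13.92 in the deletion line and 12.68 in the full-length line and Dppa3, also called Stella, 11.56 in the deletion line and 10.51 in the full-length line. The other members of the 11 were Socs3, Dppa4, Manba and Nr0b1, with differences between 1.02 and 1.47. Other factors of the naive network had positive values under 2-fold. Esrrb differed by 0.81, Prdm14 by 0.85, Klf5 by 0.71, Klf4 by 0.69 (and -0.43 at its other probe set), Klf2 by 0.47 and Tfcp2l1 by 0.46. Nanog was the exception, with levels of 12.77 in the deletion line and 13.26 in the full-length line. At day 0 the list's median difference was -0.185 and 0 of its genes were at least 2-fold higher, beside 3.15% of all genes higher and 2.82% lower on that day. Its day 7 median was 0.665.

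The 19 measured genes of LIF signalling had a median difference of 0.46, or 0.24 with probe sets averaged, with 4 higher and 0 lower, of which Gbx2 and Socs3 also stand in the naive list. Lifr, the LIF receptor gene, had levels of 10.10 in the deletion line and 8.78 in the full-length line, with further probe sets between 0.35 and 1.28. Socs3, the feedback inhibitor that STAT3 induces, had levels of 10.23 in the deletion line and 8.76 in the full-length line, with further probe sets between 1.21 and 1.58, and Bcl3, another gene that this pathway induces, had levels of 8.28 in the deletion line and 6.92 in the full-length line. Both lines had been without LIF for the 3 days of attached growth before day 4. The genes of the kinase Jak1 and of Stat3 itself differed by -0.09 and 0.13, and Lif by -0.28. General pluripotency genes differed less, with a median of 0.15 over 15 genes and Dnmt3l as the 1 counted member.

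Many genes of the formative and primed epiblast were lower. Of 20 measured genes 9 were at least 2-fold lower and 1 higher, and the median was -0.83. Fgf5, the standard marker of this state, had levels of 10.26 in the deletion line and 11.70 in the full-length line, and its 2 probe sets gave -1.44 and -1.45. Pim2, a kinase gene, had levels of 10.92 in the deletion line and 13.03 in the full-length line, and Zic2, a zinc finger factor, 9.42 in the deletion line and 10.87 in the full-length line. The list also holds Fgf8, Fst, Lefty1, Lefty2, Wnt8a and Car14, the last at -1.33. Other members lay close together. Otx2, the homeobox factor that drives this state, differed by 0.16 and Pou3f1, which encodes OCT6, by -0.01. Etv4, an ETS factor gene downstream of FGF, was higher, with levels of 7.77 in the deletion line and 6.18 in the full-length line, but -0.36 at its other probe set.

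The 19 measured genes of the Activin and Nodal pathway, which patterns the epiblast and induces the streak, were negative in 17 cases, with a median of -0.34, 3 lower and 1 higher. The median was -0.18 with equal array medians. Among the ligands, Nodal had levels of 10.68 in the deletion line and 11.46 in the full-length line. The feedback inhibitors that Nodal induces differed more. Lefty1 had levels of 11.41 in the deletion line and 13.33 in the full-length line and Lefty2 10.77 in the deletion line and 12.03 in the full-length line. The remaining lower gene was Fst, another inhibitor. Inhbb, an activin subunit gene, was at 6.43 in the deletion line and at the floor in the full-length line, with -0.85 at its other probe set. The receptor genes Acvr1b, Acvr2a and Acvr2b differed by -0.19, -0.37 and -0.15, and the signal transducers Smad2, Smad3 and Smad4 by -0.60, -0.32 and -0.06. No Activin A had been added by day 4, as the labels describe it for the following 3 days. The Lefty differences were of opposite sign at day 7, at 1.66 and 1.90.

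Of 22 primitive streak and mesendoderm genes in the list 11 were measured, and of these 4 were lower and 1 was higher, with a median of -0.83. This median was -0.54 with probe sets averaged and -0.11 with no filter on dim genes. Of the 11 genes, 3 lay at the floor in the deletion line and 0 in the full-length line. Beside Fgf8, the Wnt target Sp5 was at the floor in the deletion line and at 7.61 in the full-length line, and Fgf17 had levels of 7.19 in the deletion line and 8.55 in the full-length line, with -1.93 at its second probe set. Axin2, a Wnt target and feedback inhibitor, had levels of 7.37 in the deletion line and 8.37 in the full-length line, exactly at the 2-fold limit. Foxa2, a factor of endoderm in and outside the embryo, was higher, with levels of 7.47 in the deletion line and 6.01 in the full-length line. Eomes, a T-box factor of the streak, had a value of -0.92. Mixl1 and Gsc, homeobox genes that mark the streak and its anterior end, were not measured, since their signals were below the floor.

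The Wnt, BMP and FGF pathways were read next, beside 2.43% higher and 3.54% lower over all genes. In the Wnt list 8 of 27 genes were lower and 0 higher, with a median of -0.32. The lower genes held ligands, receptors and inhibitors alike. Wnt8a had levels of 5.85 in the deletion line and 7.27 in the full-length line, the receptor genes Fzd2 and Fzd10 differed by -1.19 and -1.45, and the inhibitor genes Dkk1 and Frzb by -1.73 and -1.72. Ctnnb1, which encodes the signal carrier beta-catenin, differed by -0.05. In the BMP list 3 of 20 genes were lower and 0 higher. All 3 are genes that BMP signals induce. Id3 had levels of 9.59 in the deletion line and 11.23 in the full-length line, Msx1 5.66 in the deletion line and 7.45 in the full-length line, and Msx2 6.19 in the deletion line and 8.51 in the full-length line. Bmp4, the ligand, had a value of 0.55. In the FGF list 3 genes were higher, or 1 with probe sets averaged, and 4 lower of 22. The ligands parted, with Fgf4 higher and Fgf5, Fgf8, Fgf15 and Fgf17 lower, while the feedback inhibitor Spry4 was higher by 1.42 and the receptor gene Fgfr1 differed by -0.18.

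**Figure D3:**
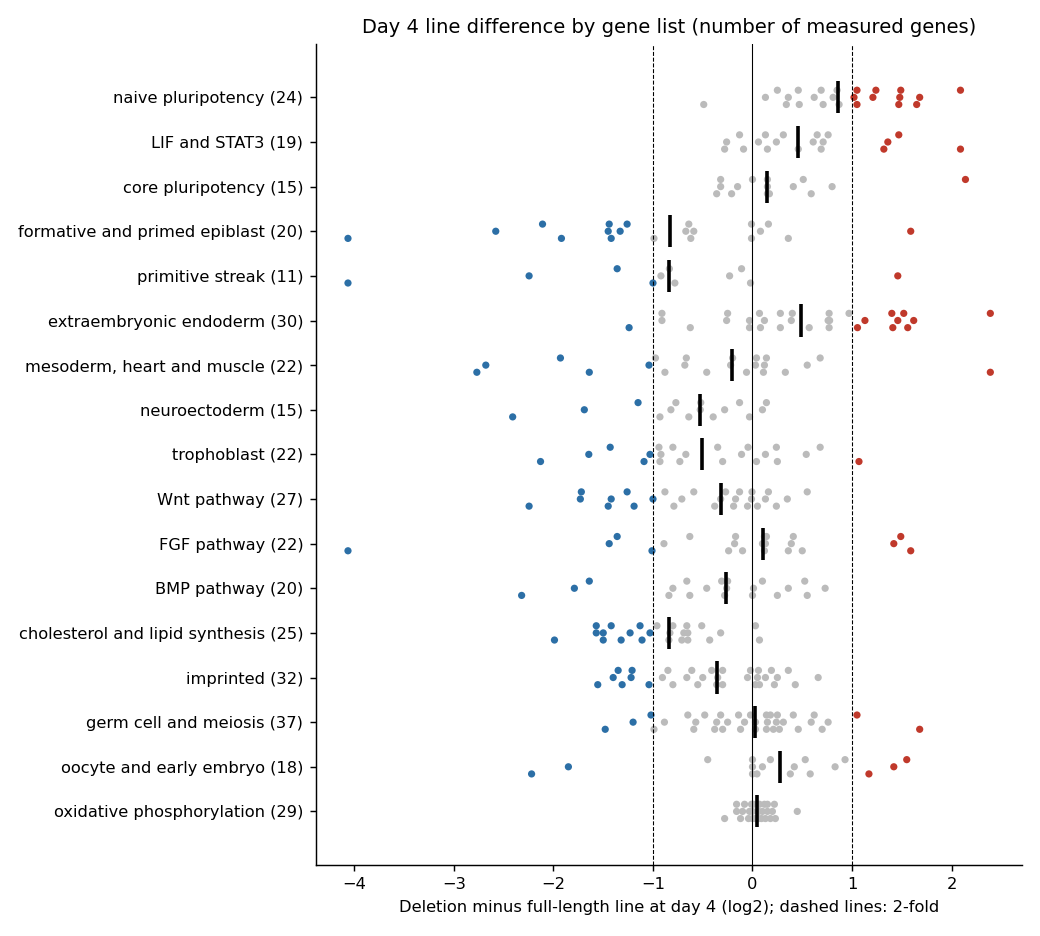
Difference at day 4 (log2, deletion minus full-length line, horizontal axis) for each measured gene of 17 gene lists, with the number of genes in brackets, red and blue points for genes at least 2-fold higher and lower, grey points for the rest and a black bar at each list's median. Naive pluripotency points lie to the right with a median of 0.86, cholesterol synthesis points lie to the left with a median of -0.84, and oxidative phosphorylation genes stay between -0.28 and 0.45.

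Some genes of extraembryonic endoderm were higher in the deletion line. This lineage forms the yolk sac and is set up by GATA6, SOX17 and SOX7. Of 30 measured genes 9 were higher and 1 lower, with a median of 0.485. Sox17 had levels of 9.58 in the deletion line and 7.96 in the full-length line, with 0.76 at its second probe set. Gata6 had levels of 8.06 in the deletion line and 6.66 in the full-length line, with 1.58 at its second probe set, and Sox7 7.50 in the deletion line and 6.37 in the full-length line. The receptor partners cubilin and amnionless, which take up proteins in visceral endoderm, were both higher. Cubn had levels of 9.54 in the deletion line and 7.98 in the full-length line, and Amn 9.58 in the deletion line and 8.06 in the full-length line. Lama1, a laminin gene of the basement membrane that this lineage lays down, had levels of 9.32 in the deletion line and 7.91 in the full-length line, and Hnf4a was at 6.42 in the deletion line and at the floor in the full-length line. Pdgfra and Foxa2 were the other counted members. Gata4 (0.12), Afp (-0.03) and Ttr (0.76) were less than 2-fold apart, and the endocytic receptor gene Lrp2 was lower, with levels of 9.73 in the deletion line and 10.97 in the full-length line. The list's median difference was 0 at day 0 and 0.435 at day 7.

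Several contractile genes were lower. Of 22 measured mesoderm, heart and muscle genes 5 were lower and 1, Pdgfra, was higher. The 5 encode parts of the actin machinery of smooth, cardiac and skeletal muscle. Actc1, cardiac alpha-actin, had levels of 7.76 in the deletion line and 10.53 in the full-length line, a 6.82-fold difference, and Acta1, skeletal alpha-actin, had 9.54 in the deletion line and 12.22 in the full-length line, a 6.41-fold difference. Acta2, smooth muscle alpha-actin, lay at 11.07 in the deletion line and 12.71 in the full-length line, Tagln, which encodes transgelin, at 10.59 in the deletion line and 12.52 in the full-length line, and Tpm1, a tropomyosin gene, at 12.22 in the deletion line and 13.26 in the full-length line. The transcription factors of the cardiac mesoderm did not share this. Nkx2-5, Gata4, Hand1, Isl1 and Tbx20 differed by values between -0.22 and 0.12. The list's median of -0.21 moved to -0.57 with a higher floor and to -0.05 with equal array medians. The promoters of Actc1 and Acta1 are shown because both hold a CArG box, the element to which serum response factor binds in muscle actin genes. The windows run from 250 bases before to 50 after the RefSeq start of each gene in GRCm38.p6, at chr2:114052826-114053125 for Actc1 and chr8:123894726-123895025 for Acta1, both on the minus strand, and capitals mark the CArG box.
Actc1: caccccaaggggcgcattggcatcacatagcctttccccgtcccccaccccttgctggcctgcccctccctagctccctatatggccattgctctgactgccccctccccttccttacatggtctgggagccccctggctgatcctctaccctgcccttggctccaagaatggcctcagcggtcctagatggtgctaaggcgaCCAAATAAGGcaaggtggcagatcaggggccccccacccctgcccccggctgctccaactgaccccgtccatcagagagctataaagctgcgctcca
Acta1: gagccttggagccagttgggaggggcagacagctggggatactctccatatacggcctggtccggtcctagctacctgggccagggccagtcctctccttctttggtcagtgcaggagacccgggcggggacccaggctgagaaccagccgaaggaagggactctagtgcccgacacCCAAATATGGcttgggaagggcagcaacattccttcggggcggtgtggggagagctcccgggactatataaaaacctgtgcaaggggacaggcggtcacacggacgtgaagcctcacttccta
A CArG box, searched on both strands, was found in 2 of the 4 lower genes of this list that had a window, in 2 of the other 13 members with one, and in 1.54% of the 10679 measured genes with a window (1.63% of all 32851 windows).

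The list with the most lower genes at day 4 was that of cholesterol synthesis. Of 25 measured genes of cholesterol and lipid synthesis 11 were at least 2-fold lower and 0 higher, 23 had a negative difference, and the median was -0.84. All 16 measured enzymes of the route from acetyl units to cholesterol were lower in value, by 0.51 to 1.99, with a median of -1.18, and 9 of them passed the 2-fold limit. Hmgcs1, which makes the precursor HMG-CoA, had levels of 12.22 in the deletion line and 13.72 in the full-length line, and its 3 further probe sets were lower as well, by up to 1.24 (-1.24). Idi1, which isomerises isopentenyl diphosphate, had levels of 10.91 in the deletion line and 12.48 in the full-length line, and Mvd, which makes that compound, 8.91 in the deletion line and 10.14 in the full-length line. Among the enzymes that form and trim the sterol rings, Sqle lay at 11.33 in the deletion line and 12.46 in the full-length line, Lss, which closes the sterol rings, at 8.95 in the deletion line and 10.37 in the full-length line, and Cyp51, a demethylase, at 9.90 in the deletion line and 11.22 in the full-length line. Msmo1, a sterol methyl oxidase gene, had the widest gap, with levels of 10.82 in the deletion line and 12.81 in the full-length line, a 3.97-fold difference, while its second probe set gave 0.00. Nsdhl had levels of 9.36 in the deletion line and 10.93 in the full-length line and Sc5d 8.88 in the deletion line and 10.38 in the full-length line. The other 7 enzymes, Mvk, Pmvk, Fdps, Fdft1, Hsd17b7, Ebp and Dhcr7, had values between -0.96 and -0.51. Insig1, a sensor that the sterol pathway itself induces, had levels of 9.72 in the deletion line and 10.83 in the full-length line, and Fasn, fatty acid synthase, 10.70 in the deletion line and 11.73 in the full-length line. Srebf2, which encodes the transcription factor that activates this pathway, had levels of 9.04 in the deletion line and 9.84 in the full-length line. The fatty acid genes Acly (0.07) and Acaca (0.03) did not share the direction.

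**Figure D4:**
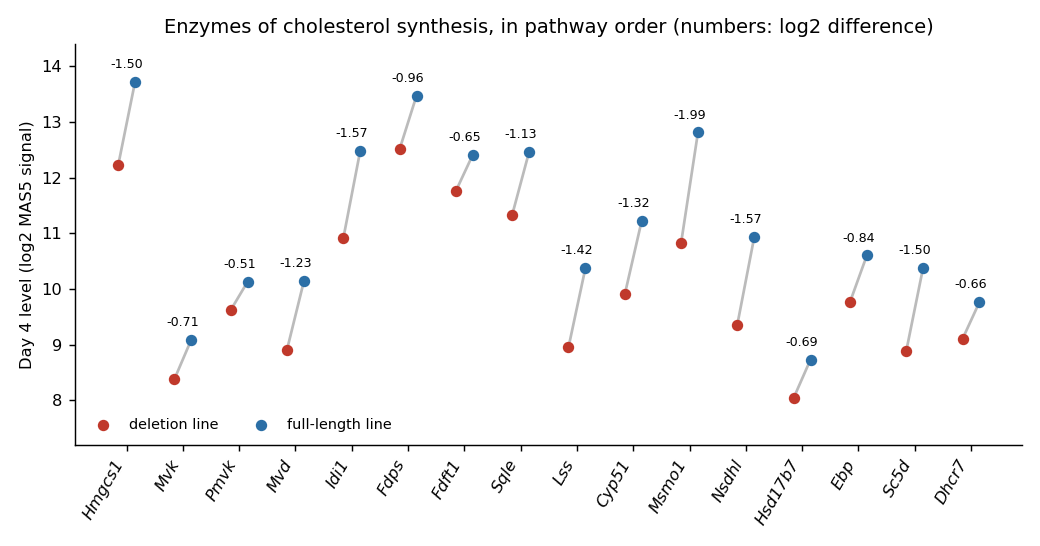
Levels at day 4 (log2 MAS5 signal, vertical axis) of the 16 measured enzymes of cholesterol synthesis in the order in which they act, with red points for the deletion line, blue points for the full-length line and the difference printed above. The red point is lower for each of the 16 enzymes, from -0.51 for Pmvk to -1.99 for Msmo1.

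The 16 enzymes differed little at day 0, with a median of -0.075, a range of -0.37 to 0.44 and 0 at least 2-fold apart. At day 7 all 16 were again lower in value, with a median of -1.12 and 11 at least 2-fold lower, beside 8.92% of all genes lower and 3.95% higher on that day. The day 4 and day 7 differences share no array. The promoters of the 3 lower enzyme genes with the largest differences and of Hmgcs1 are shown because CCAAT boxes, the sites of the factor NF-Y that acts with SREBP, stand in each. Capitals mark CCAAT on either strand (ATTGG on the other) and, in Hmgcs1, a match to TCACNCCAC, a form of the sterol regulatory element. The windows are those of RefSeq in GRCm38.p6, at chr8:64733529-64733828 on the minus strand for Msmo1, and on the plus strand at chr13:8885356-8885655 for Idi1, chrX:72918271-72918570 for Nsdhl and chr13:119690101-119690400 for Hmgcs1.
Msmo1: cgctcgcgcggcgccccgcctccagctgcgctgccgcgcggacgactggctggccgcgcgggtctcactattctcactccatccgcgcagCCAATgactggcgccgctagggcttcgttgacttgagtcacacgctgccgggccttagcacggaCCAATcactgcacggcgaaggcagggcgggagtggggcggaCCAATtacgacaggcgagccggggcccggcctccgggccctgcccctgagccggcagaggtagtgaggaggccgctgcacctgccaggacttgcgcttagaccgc
Idi1: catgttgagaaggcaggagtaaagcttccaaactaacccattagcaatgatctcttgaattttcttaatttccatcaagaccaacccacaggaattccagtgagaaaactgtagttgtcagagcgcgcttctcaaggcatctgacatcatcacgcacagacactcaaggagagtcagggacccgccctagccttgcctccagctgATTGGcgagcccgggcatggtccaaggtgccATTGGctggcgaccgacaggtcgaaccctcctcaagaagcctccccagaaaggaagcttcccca
Nsdhl: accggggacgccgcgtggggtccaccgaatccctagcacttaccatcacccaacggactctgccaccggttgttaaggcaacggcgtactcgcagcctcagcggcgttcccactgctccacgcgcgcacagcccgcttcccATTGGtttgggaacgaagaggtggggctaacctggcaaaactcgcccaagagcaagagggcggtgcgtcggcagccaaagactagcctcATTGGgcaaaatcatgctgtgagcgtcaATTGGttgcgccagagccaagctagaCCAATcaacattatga
Hmgcs1: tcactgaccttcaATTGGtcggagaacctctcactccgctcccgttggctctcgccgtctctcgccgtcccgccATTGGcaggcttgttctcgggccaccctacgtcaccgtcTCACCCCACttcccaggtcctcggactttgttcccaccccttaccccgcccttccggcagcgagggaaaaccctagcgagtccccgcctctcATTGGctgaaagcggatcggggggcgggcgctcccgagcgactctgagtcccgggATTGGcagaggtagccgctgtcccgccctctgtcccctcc
Msmo1 holds 3 CCAAT boxes, Idi1 2, Nsdhl 4 and Hmgcs1 4. At least 1 was found in 10 of the 10 lower genes of the list that had a window and in 8 of the 9 other members with one, and in 42.9% of the measured genes with a window (37.4% of all windows). TCACNCCAC, searched on both strands, was found in 1 of the 10, in 0 of the 9 and in 1.45% of the measured genes (1.24% of all windows). The motifs did not overlap in the windows shown.

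Genes of other lineages and of simple epithelia were lower in part, beside 3.54% lower and 2.43% higher over all genes. In the neuroectoderm list 3 of 15 were lower and 0 higher, with a median of -0.52. The lower genes numbered 1 with probe sets averaged and 6 with the lower floor, and the median was -0.13 with no filter on dim genes. Sox1, the earliest neural SOX factor, had levels of 7.48 in the deletion line and 8.63 in the full-length line and Gap43, a growth cone gene, 6.97 in the deletion line and 8.66 in the full-length line. Nrcam is the last of these, and Pax6 had a value of -0.93. In the trophoblast list 5 of 22 were lower, or 3 with equal array medians, and 1, Esx1, was higher by 1.07. These included Gata3, at the floor in the deletion line and at 7.01 in the full-length line, and Rhox6, with levels of 9.01 in the deletion line and 10.10 in the full-length line, but Cdx2 (-0.11) and Elf5 (-0.04), the defining factors of trophoblast stem cells, were near the floor in both lines. The other members were keratins, which simple epithelia in general express. Krt7 had levels of 7.67 in the deletion line and 9.80 in the full-length line, Krt8 11.90 in the deletion line and 13.33 in the full-length line and Krt18 12.40 in the deletion line and 13.43 in the full-length line. These 3 also stand in the list of keratins and junctions, where 4 of 26 genes were lower and 0 higher, the other being Krt20, at the floor in the deletion line with a difference of -1.28. Junction genes did not go along, with Cdh1, E-cadherin, at 0.16 and Epcam at -0.23. Blood and endothelium genes were less than 2-fold apart in all 19 cases, with a median of 0.14.

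Genes that DNA methylation is known to control were mixed, beside 2.43% higher and 3.54% lower over all genes. Of 32 measured imprinted genes 7 were lower and 0 higher, with a median of -0.355. With probe sets averaged 3 were lower, and with equal array medians the list's median was -0.195. Peg3, a zinc finger gene expressed from the paternal copy, had levels of 11.79 in the deletion line and 13.10 in the full-length line, with -1.86 to -1.23 at further probe sets. Nnat, also paternally expressed, had levels of 8.51 in the deletion line and 9.91 in the full-length line, Zdbf2 9.85 in the deletion line and 11.20 in the full-length line, and Airn, a noncoding RNA, was at the floor in the deletion line and at 6.92 in the full-length line. Igf2, a growth factor gene, had levels of 7.67 in the deletion line and 8.89 in the full-length line. Magel2 and Plagl1, at -1.21 and -1.04, complete the 7, while the maternally expressed Meg3 and Cdkn1c differed by -0.05 and 0.06. Zfp57, whose product protects methylation at imprinted regions, was higher, with levels of 8.03 in the deletion line and 6.25 in the full-length line. With Morc3, at 1.01, it made up the 2 higher genes of 29 in the list of chromatin silencing.

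Germ cell genes, many of which methylation silences in other cells, had a median of 0.03 at day 4, with 2 of 37 higher, Tcl1 and Mei4, and 3 lower, Tex101, Pdha2 and Rhox13. Over all genes 2.43% were higher and 3.54% lower. Dazl, a germ cell RNA-binding protein gene, had levels of 10.07 in the deletion line and 9.45 in the full-length line. The same list had median differences of -0.66 at day 0 and 0.61 at day 7, so day 4 lay between them. Of 18 oocyte and early embryo genes 3 were higher and 2 lower. Khdc3 and Nlrp4f, maternal genes, differed by 1.42 and 1.17 and the homeobox gene Crxos by 1.55, while Usp17la, a deubiquitinase gene, differed by -1.85 and Arg2, arginase 2, by -2.22.

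Lists of stress responses and basic metabolism are given as a description, beside 2.43% higher and 3.54% lower over all genes. All but the interferon list had 2 or fewer counted genes each. In the interferon list the lower genes made up a larger share than over all genes. Of 21 measured p53 target genes 0 were at least 2-fold apart, and likewise 0 of 23 immediate-early, 0 of 29 glycolysis and hypoxia and 0 of 29 oxidative phosphorylation genes. In the integrated stress response list 1 of 22 was higher, Nupr1, a chromatin-binding stress protein gene, with levels of 8.39 in the deletion line and 6.60 in the full-length line. In the cell cycle list 2 of 32 were lower, Ccnd2, cyclin D2, at -1.33 and Cdk6 at -1.07. The interferon list had 5 lower, or 1 with the higher floor, and 1 higher of 24, with a median of -0.11 that turned to 0.07 with equal array medians. Zbp1 and Ifih1, sensors of foreign nucleic acid, were at the floor in the deletion line and at 7.32 and 6.75 in the full-length line, Ifi27 (-1.23, with 0.83 at its other probe set), Oasl1 (-1.08) and Ifi35 (-1.01) were lower, and Mavs, an adaptor gene, was higher by 1.42. Among metal and ribosomal genes, Mt3, a metallothionein gene, was at 7.27 in the deletion line and at the floor in the full-length line. Slc39a8, a zinc and manganese transporter gene, had levels of 9.86 in the deletion line and 11.22 in the full-length line, and 1 of 19 ribosomal protein genes, Rps27, was higher by 1.92. In the HOX list 1 of 12, Hoxa5, was higher by 1.36.

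Some matrix genes were lower in the deletion line at day 4 and higher there at day 0. Of 29 collagen and matrix genes 5 were lower and 2 higher at day 4, and 17 had a negative difference, while 13 were higher and 1 lower at day 0. Over all genes 3.54% were lower and 2.43% higher at day 4, and 3.15% higher and 2.82% lower at day 0. The list's median of -0.25 at day 4 was 0 with the higher floor and -0.09 both with equal array medians and with probe sets averaged, when 2 genes were lower. Has2, which makes hyaluronan, and Vcan, versican, differed by -1.64 and -1.51 at day 4 and by 0.18 and 0.28 at day 0. Col3a1 and Dcn were at the floor in the deletion line and at 6.52 and 6.68 in the full-length line. A second Col3a1 probe set was at the floor in both lines at day 4. Col5a2 had levels of 7.69 in the deletion line and 9.10 in the full-length line. At day 0 these 3 genes were higher in the deletion line, by 2.41, 1.66 and 1.66. The summed fibroblast markers given above were higher in the deletion line at day 0 too, and Col3a1 and Dcn are among these markers. The part of such cells in these results was not tested. Of 13 measured myeloid genes 1, Laptm5, was higher at day 4, by 1.34.

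The day 4 differences were set beside those of days 0 and 7, which use other arrays. Of the 323 genes higher at day 4, 24 were also higher at day 0 (7.43% of them, beside 3.15% of all genes, and 5.74% of the day 0 genes) and 11 were lower there (3.41% beside 2.82%). At day 7, 78 of them were also higher (24.1% beside 3.95% of all genes, and 14.9% of the day 7 genes) and 22 were lower (6.81% beside 8.92%). Of the 470 genes lower at day 4, 44 were also lower at day 0 (9.36% beside 2.82%, and 11.7% of the day 0 genes) and 42 were higher there (8.94% beside 3.15%). At day 7, 178 of them were also lower (37.9% beside 8.92%, and 15.03% of the day 7 genes) and 24 were higher (5.11% beside 3.95%). By sign alone, 52.3% of the higher genes were positive at day 0, beside 42.5% of all genes, and 62.8% at day 7, beside 44.8%. Of the lower genes 50% were negative at day 0, beside 54.4% of all genes, and 72.1% at day 7, beside 53.4%. Less than 2-fold apart on both other days were 203 of the higher (62.8%) and 227 of the lower genes (48.3%), beside 82.9% of all genes. Whether the overlaps differ was not tested.

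Of the 323 genes higher at day 4, 10 (3.10%) were higher on each of the 3 days, and of the 470 lower genes 13 (2.77%) were lower on each. A gene apart on each day is always counted at day 4, so over all 13277 genes these counts are also 10 and 13. Nupr1 had differences of 2.30, 1.79 and 3.01 at days 0, 4 and 7, Cpt1a 1.27, 2.70 and 2.99, and Malat1, an abundant noncoding RNA, 1.34, 1.92 and 1.66, with day 4 values of its further probe sets between -0.97 and 1.80. Ninl and Spink1 were the other named genes higher on each day, with day 4 differences of 1.13 and 1.10. Lower on each day were Wnt4, a Wnt ligand gene (-1.57, -1.26 and -1.26), Prickle1, a planar polarity gene (-1.15, -1.48 and -1.50), Cysrt1, Lpcat4 and Pgap4, the last 3 with day 4 differences of -1.65, -1.16 and -1.12. Others were apart at day 4 and not in the same direction before or after. Kndc1 differed by 1.98 at day 4 beside -0.69 and -0.38 at days 0 and 7, Kcnip2, a potassium channel partner gene, by 1.52 beside -0.89 and -0.75, and Aass, Rasal1 and Rbfox3 behaved likewise. For Rbfox3 this holds at its brightest probe set (1.23 at day 4), while a further one gave -0.64. Efemp1 differed by -4.04 beside 1.89 and 1.21, Pla2g7, a phospholipase gene, by -1.43 beside 1.00 and 2.27, and Golga7b by -2.39 beside 0.06 and 0.

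**Figure D5:**
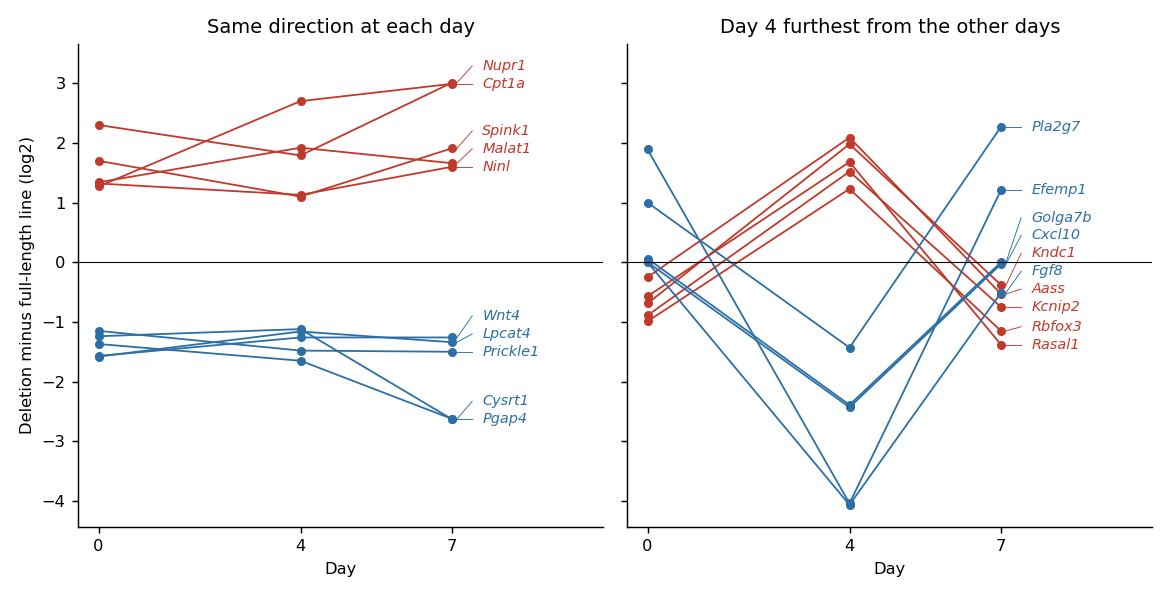
Difference (log2, deletion minus full-length line, vertical axis) at days 0, 4 and 7 (horizontal axis) of named genes at least 2-fold apart in 1 direction on each day (left panel) and of genes whose day 4 difference lay furthest from both other days (right panel), red for genes higher and blue for genes lower at day 4. Nupr1 runs from 2.30 to 3.01 with a dip at day 4, while Efemp1 turns to -4.04 between 1.89 and 1.21.

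The genes that change over the full-length line's own course, by its arrays of days 0 and 7, which the day 4 differences do not use, were then read at day 4. This choice rests on that line alone and can favour genes that change more in it than in the deletion line. A lower value in the deletion line may thus be built in in part. The same reading from the deletion line's own course was not made. In the full-length line 241 genes were at least 4-fold higher at day 7 than at day 0. Of these, 74 (30.7%, beside 3.54% of all genes) were at least 2-fold lower in the deletion line at day 4 and 3 higher (1.24% beside 2.43%). A negative difference was found in 179 of the 241 (74.3%), beside 6811 of all 13277 genes, and the median was -0.56. The lower genes numbered 136 of 441 with the lower floor, 33 of 107 with the higher floor and 44 of 158 with probe sets averaged, and their share was 24.9% to 30.8% over the alternatives run. The median difference of the 241 genes at day 0 was 0.08. Another 77 genes were at least 4-fold lower at day 7 than at day 0. Of these, 10 (13.0%, beside 2.43%) were higher in the deletion line at day 4 and 3 lower (3.90% beside 3.54%), with a median of 0. The day 4 median of this second set was 0.10 to 0.15 with a higher floor and with the other scalings.

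Median differences by chromosome ran from -0.10 on the X chromosome, with 457 genes, to 0.045 on chromosome 18. The promoters of the counted genes held fewer CG pairs. A window of 300 bases held a median of 11.7 CG in the 250 higher genes with a window and of 14 in the 344 lower genes, beside 20 in the 10679 measured genes. Windows with 5 or fewer CG made up 26.0%, 18.3% and 9.57% of these. The counted genes were also dimmer, with a median level on the brighter array of 7.89 for higher and 7.79 for lower genes beside 9.15 for all, and dim genes in general had fewer CG. By the brighter array's level, within the dimmest of 5 bins the medians were 8.25 for higher, 10 for lower and 11 for the remaining genes, and within the brightest bin 11, 17 and 23, the first of these over 21 genes. The part of brightness in the CG counts was not tested.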

How the data were processed

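RNA of 6 mouse samples was measured on Affymetrix arrays, and the 2 arrays of day 4 were compared. The deposited values are MAS5 signals, per the submitters' processing notes, on a scale read here as log2 from the values, since the base is not given in the sources used here. After 2% were trimmed at each end, the mean of the linear signals was 496.5 to 496.7 on all 6 arrays, which makes levels relative to each array's mean. Of 45037 probe sets 34945 had 1 gene symbol in the platform annotation, 932 several and 9160 none; 34741 were found in RefSeq and 0 symbols changed. Only those with 1 symbol named a gene.

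Signals below the median over arrays of the 40th percentile (41.2) were set to it. Each gene is represented by its brightest probe set on average and counts as measured if that average reached the floor (13277 genes, 7856 of them with several probe sets). Of 931 entries in 34 gene lists, some in several lists, 762 were measured. With 1 array a side no test was possible. Calculations used Python 3.11.15 with numpy 2.4.6 and pandas 2.3.3, checked on simulated data. The simulated differences lay in bright genes, were wider than 2-fold and had less noise than the probe sets here. That check covers the code and not the accuracy of the counts. The members and lists were chosen with earlier results of these data known.

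Named genes are Dnmt1, Dnmt3a and Dnmt3b; the 15 highest and 15 lowest differences with a brighter array of 4 times the floor or more, unnamed gene models left out; up to 4 counted members per list; and 5 each way for genes apart on each day and for genes with day 4 furthest from the nearer other day. Other genes were named after their values were seen. Alternatives were floors at the 20th and 60th percentiles, equal array medians, quantile normalization, the mean of all probe sets, no filter on dim genes, a 3-fold limit and, for the agreement of probe sets, all further probe sets.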

Additional observations from a re-analysis of the deposited data

Results flagged for a closer look

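Among the named genes and the counted list members, 22 genes were at least 2-fold apart at day 4 in one direction and at least 2-fold apart in the other direction at day 0 or day 7. Of all 323 higher genes, 11 were lower at day 0 (3.41%, beside 2.82% of all genes) and 22 at day 7 (6.81% beside 8.92%). Of all 470 lower genes, 42 were higher at day 0 (8.94% beside 3.15%) and 24 at day 7 (5.11% beside 3.95%). Efemp1, Pla2g7, Rasal1 and Rbfox3 were named for a day 4 difference far from the other days, which favours such a turn. Each day has 1 array a line, so the difference between days was not tested. Dim genes had wider differences in general.

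Lower in the deletion line at day 4 but higher there at day 0 were Fst (-2.58 beside 1.42), Vnn1 (-2.54 beside 1.24), Pmp22 (-2.48 beside 1.11), Gap43 (-1.69 beside 1.49), Col5a2 (-1.41 beside 1.66), Ccnd2 (-1.33 beside 1.24), Dcn (-1.31 beside 1.66), Lrp2 (-1.24 beside 1.21), Igf2 (-1.22 beside 1.26) and Plagl1 (-1.04 beside 1.28). The collagen gene Col3a1 had -1.15 at day 4 beside 2.41 at day 0 and 2.44 at day 7, Efemp1 -4.04 beside 1.89 and 1.21, and Pla2g7 -1.43 beside 1.00 and 2.27. For Dcn and Col3a1 the day 4 value is a lower bound in size. At day 0 the summed fibroblast and myeloid markers were higher in the deletion line, as given above. The source label of that sample also describes differentiated cells. The part of this in the day 0 values was not tested.

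Lower at day 4 but higher at day 7 were the Nodal inhibitors Lefty1 (-1.92 beside 1.66) and Lefty2 (-1.26 beside 1.90), the deubiquitinase gene Usp17la (-1.85 beside 2.29) and the interferon-linked genes Zbp1 (-1.95, a lower bound in size, beside 1.63) and Ifi35 (-1.01 beside 1.22). Activin A was present in the 3 days before day 7 and not before day 4.

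Higher at day 4 but lower at day 7 were Gbx2 (2.09 beside -1.94), Rasal1 (1.68 beside -1.38), Socs3 (1.47 beside -1.06) and Rbfox3 (1.23 beside -1.15). A further Rbfox3 probe set conflicted, with -0.64 at day 4. Gbx2 and Socs3 are both counted in the LIF list.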

How the results depend on the processing

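No paired analysis was possible because the day 4 comparison has 1 array a side; a comparison of the lines paired over the 3 days, which asks another question, was not made. Of 962 values of 163 results under the alternatives, 798 stayed near the reported value, 163 moved and 1 reversed. The reversed value was the interferon list's median, at 0.07 with equal array medians. A list median counted as reversed only where its reported size was 0.10 or more, so smaller medians that changed sign are not included. With equal array medians the methylation machinery list's median went from -0.03 to 0.13 and the cell cycle list's from -0.06 to 0.10. The median of all genes went from -0.02 to 0.13. These counted as moved. Single genes were checked only for 44 genes named for their differences, all at least 2-fold apart at day 4. Of their 256 values 31 moved and 0 reversed, and such a choice leaves little room for a reversal. Genes named only within the lists were not among them. Higher and lower genes numbered 827 and 1232 with the floor at the 20th percentile, 155 and 197 at the 60th, 493 and 324 with equal medians, 357 and 396 with quantile normalization, 214 and 304 with probe sets averaged, and 58 and 119 at 3-fold. Genes higher at both day 4 and day 0 numbered 123 with the lower floor and 13 with averaged probe sets, and lower ones 172 and 25, or 15 with the higher floor. For day 7 the higher genes shared were 163 with the lower and 49 with the higher floor, and the lower ones 357 and 89, 118 with equal medians and 109 averaged. The median of genes 4-fold lower over the full-length course was 0.15 with the higher floor, 0.15 with equal medians and 0.10 with quantile normalization. Of list results, the formative list had 0 higher genes with the higher floor and 0 with probe sets averaged, the extraembryonic endoderm list 2 lower genes with the lower floor, and the Wnt list 5 lower genes with the higher floor and 5 averaged, and medians of -0.59 with the lower floor and -0.16 with equal medians. The mesoderm list's median was -0.57, -0.05 and -0.06 with the higher floor, equal medians and no filter on dim genes, and 3 of its genes were lower with probe sets averaged. The naive list kept a median of 0.86 to 1.02 with 11 to 13 higher genes, and the cholesterol list -0.85 to -0.68 with 8 to 11 lower genes. Among the smaller lists, lower genes numbered 0 in the cell cycle list with probe sets averaged, 7 in the list of keratins and junctions with the lower floor, and 1 in the germ cell list with the higher floor, and higher HOX genes 5 with the lower floor. With equal array medians, which raised the median of all genes to 0.13, the medians of the general pluripotency, germ cell and blood lists were 0.31, 0.19 and 0.30. Signal near the floor limits dim genes. The cause of these changes was not tested.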
